A study of Mus musculus with 2 samples.

Results

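Bone morphogenetic protein (BMP) signalling was described through 9 of the 32285 genes in the count tables: the ligands Bmp4, Bmp5, Bmp6 and Bmp7, the secreted antagonist Noggin (Nog), the type I receptors Bmpr1a, Bmpr1b and Acvr1, and the type II receptor Bmpr2. The genes were chosen because earlier results of the same data had shown them to differ between cell groups, so their levels over those groups are given as a description and without a test. All cells came from the pallium of wild-type mice at postnatal day 3 that had received EdU, a thymidine analogue taken up during DNA synthesis, at embryonic day 12. Tissue was pooled, and living cells in the brightest 10% for EdU were sorted and sequenced as 2 droplet single-cell RNA libraries, replicate 1 and replicate 2. Every cell group described here therefore shares the genotype, age, EdU pulse and sort, and there is no unlabelled or unsorted group. The labels do not say whether the replicates came from separate litters. The p-values measure how far differences between groups varied between these libraries, over all groups fitted, with the average library difference removed. This spread may be technical.

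BMPs are secreted dimers that bind paired type I and type II receptor kinases, which phosphorylate Smad1, Smad5 and Smad9. These join Smad4 and enter the nucleus, where they raise genes such as the Id family of helix-loop-helix inhibitors and the inhibitory Smads. Noggin binds BMPs outside the cell and keeps them from their receptors. In the developing forebrain BMPs are known to favour astrocyte over oligodendrocyte formation, and Noggin to counter this.

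The libraries held 97091962 and 108903409 unique molecular identifiers (UMIs, 1 per captured transcript), and 11228 and 10965 cells with at least 500 genes and at most 10% mitochondrial UMIs, with medians of 7542.5 and 8523 UMIs per cell. Cell groups were set by counts of marker genes outside the BMP list. Oligodendrocyte precursor cells (OPCs, Pdgfra at 2 UMIs or more without Enpp6 at 2) numbered 3765 and 3877, and Enpp6 oligodendrocytes, newly formed cells with 2 UMIs or more of Enpp6, numbered 15 and 31. Aqp4 astroglia without a UMI of Serpinf1 or Pla2g3 numbered 909 and 932, astroglia with both of these genes 246 and 255, and intermediate astroglia with 1 of them 416 and 374. Glutamatergic neurons numbered 797 and 816, and GABAergic neurons 958 and 1012. Smaller groups were intermediate progenitors, Cajal-Retzius cells (84 and 90), microglia (129 and 149), endothelial cells (15 and 21) and fibroblasts and mural cells (13 and 11). Cells that met several definitions (630 and 743) or none (3138 and 2482) were kept apart. Most markers not used for grouping followed the names. OPCs had a mean of 374 CPM (UMIs of a gene scaled to an equal total for all groups) of Cspg4, and Enpp6 oligodendrocytes 3014 CPM of Mbp. Aqp4 astroglia had 1258 CPM and astroglia with Serpinf1 and Pla2g3 1596 CPM of Aldoc, but the latter had less Slc1a2 (884 against 1117 CPM) and Gja1 (127 against 193 CPM). Stmn2, Tubb3 and Dcx were higher in both neuron types than in OPCs. Snap25 was not, with 51.5 CPM in glutamatergic neurons, 34.2 CPM in GABAergic neurons and 58.4 CPM in OPCs. Levels are CPM of the UMIs summed over a group in a library, and bracketed or error-bar intervals are 95% intervals that cover counting error only.

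**Figure D1:**
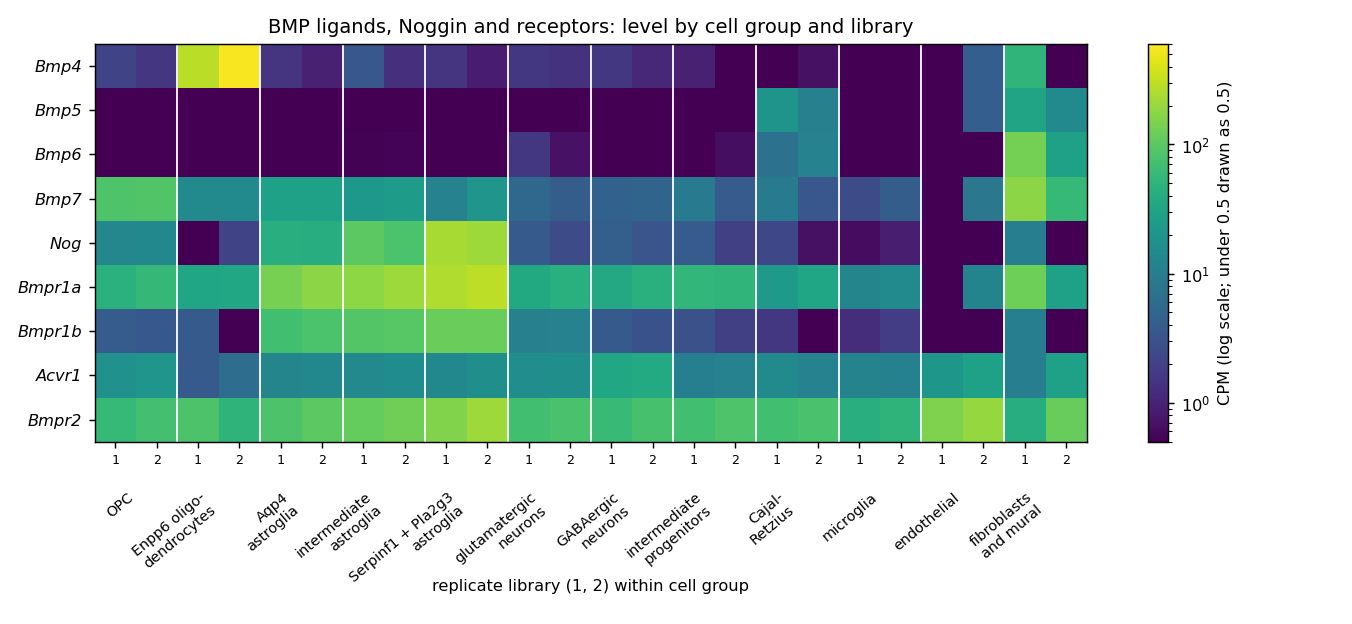
Level of each of the 9 genes (rows) in 12 cell groups (columns, replicate 1 and 2 side by side), as CPM of summed UMIs on a log colour scale, with values under 0.5 CPM drawn as 0.5. Bmp4 is brightest in Enpp6 oligodendrocytes, Bmp7 in OPCs and fibroblasts, and Nog, Bmpr1a and Bmpr1b in astroglia with Serpinf1 and Pla2g3.

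Bmp4 was high in Enpp6 oligodendrocytes and near background in the other large groups. It lies on chromosome 14 (mm10, 46383520 to 46390669, minus strand) and overlaps the annotated antisense gene Gm15217. Enpp6 oligodendrocytes held 78 UMIs in replicate 1, or 292 CPM (230.5 to 364), and 268 UMIs in replicate 2, or 567 CPM (501 to 639). The level differed between the libraries beyond counting error, but a Bmp4 UMI was present in most of these cells in each, 80% and 93.5%. The libraries also differed in the cells of this group, with 5 of 15 dividing in replicate 1 and 1 of 31 in replicate 2. The part of this in the level was not tested. In OPCs Bmp4 stood at 2.14 and 1.51 CPM, with a UMI in 1.27% and 1.19% of cells. None of the 129 and 149 microglia, used as a type in which free RNA would show, had a Bmp4 UMI. That allows shares of up to 2.33% and 2.01%, so the OPC shares as a whole cannot be told from this background at this depth. Aqp4 astroglia, with a UMI in 0.330% and 0.536% of cells, overlapped OPCs within counting error. Single OPCs held more, with 3 or more Bmp4 UMIs in 5 and 4 of them, against 1 Aqp4 astroglial cell in each library. The level in Enpp6 oligodendrocytes was 136-fold and 374-fold that background-like level of OPCs. With every cell thinned to 2000 UMIs, Bmp4 remained detected in 40% and 51.6% of Enpp6 oligodendrocytes against 0.397% and 0.299% of OPCs. The 250 bases before the RefSeq start of Bmp4, the ligand with the sharpest pattern, are shown for reference, 5′ to 3′ on the minus strand (chr14:46390670-46390919, GRCm38.p6), and hold no GGCGCC, a GC-rich element known to be bound by BMP Smads:

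Bmp4: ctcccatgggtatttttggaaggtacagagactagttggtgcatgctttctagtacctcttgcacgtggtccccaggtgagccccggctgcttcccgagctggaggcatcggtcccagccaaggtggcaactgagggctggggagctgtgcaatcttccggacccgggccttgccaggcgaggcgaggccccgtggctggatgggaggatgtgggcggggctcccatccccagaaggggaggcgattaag

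The level followed Enpp6 on each side of the threshold. OPCs with no Enpp6 UMI had 2.05 and 1.39 CPM of Bmp4, and the 10 and 13 OPCs with a single Enpp6 UMI had 36.8 and 35.6 CPM. Cells that still had Pdgfra at 2 UMIs beside Enpp6 at 2 (7 and 4 cells) reached 223 and 396 CPM, and those with Enpp6 and less Pdgfra (8 and 27 cells) 382 and 607 CPM. Bmp4 was therefore higher in each library where Enpp6 was higher, and overlapped with Pdgfra in a few cells. Of 88 cells with 3 or more Bmp4 UMIs in any group, 84 had Bcas1, a gene of myelin-forming cells, 70 had Mbp, 52 had Enpp6 and 33 had Pdgfra. For comparison, a mean of 63.0% of all OPCs had Bcas1 and 28.4% had Mbp. Only 33 of the 88 were in the Enpp6 group, 30 were in no group, 12 met several definitions and 9 were OPCs.

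Bmp7 had the highest level in OPCs of the ligands among the 9 genes. It lies on chromosome 2 (172868012 to 172940321, minus strand). OPCs had 86.2 and 87.9 CPM, and a UMI was present in 46.1% and 50.9% of them. Aqp4 astroglia followed with 29.3 and 29.1 CPM, intermediate astroglia with 22.1 and 25.1 CPM, and astroglia with Serpinf1 and Pla2g3 with 11.7 and 20.1 CPM. The OPC level was 2.94-fold and 3.02-fold that of Aqp4 astroglia, and these groups did not overlap between libraries. Glutamatergic neurons had 5.49 and 4.03 CPM and GABAergic neurons 4.46 and 4.88 CPM, so the neuron types overlapped. Shares of neurons with a Bmp7 UMI, 2.45% to 3.56% at medians of 6222 to 6944 UMIs per cell, lay near the 3.10% and 4.03% of microglia at medians of 11759 and 13899 UMIs, and are not read as expression. Thinned to 2000 UMIs, the gene was detected in 16.9% and 16.1% of OPCs and 5.37% and 6.37% of Aqp4 astroglia. OPCs held 66.5% of all 9370 Bmp7 UMIs.

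Across the oligodendrocyte lineage Bmp7 and Bmp4 had opposite orders. Enpp6 oligodendrocytes had 15.0 and 14.8 CPM of Bmp7, from 4 and 7 UMIs. Among them, cells with Pdgfra at 2 UMIs or more had 26.2 and 33.0 CPM of Bmp7 and those with less 0 and 10.47 CPM, while Bmp4 ran the other way. At a threshold of 1 Enpp6 UMI the mean Bmp7 level of the group was 32.3 CPM, still below OPCs. These splits hold 4 to 27 cells each, and their intervals are wide. Fibroblasts and mural cells, with 177 and 57.2 CPM of Bmp7 from 17 and 4 UMIs in 13 and 11 cells, overlapped with the OPC level.

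**Figure D2:**
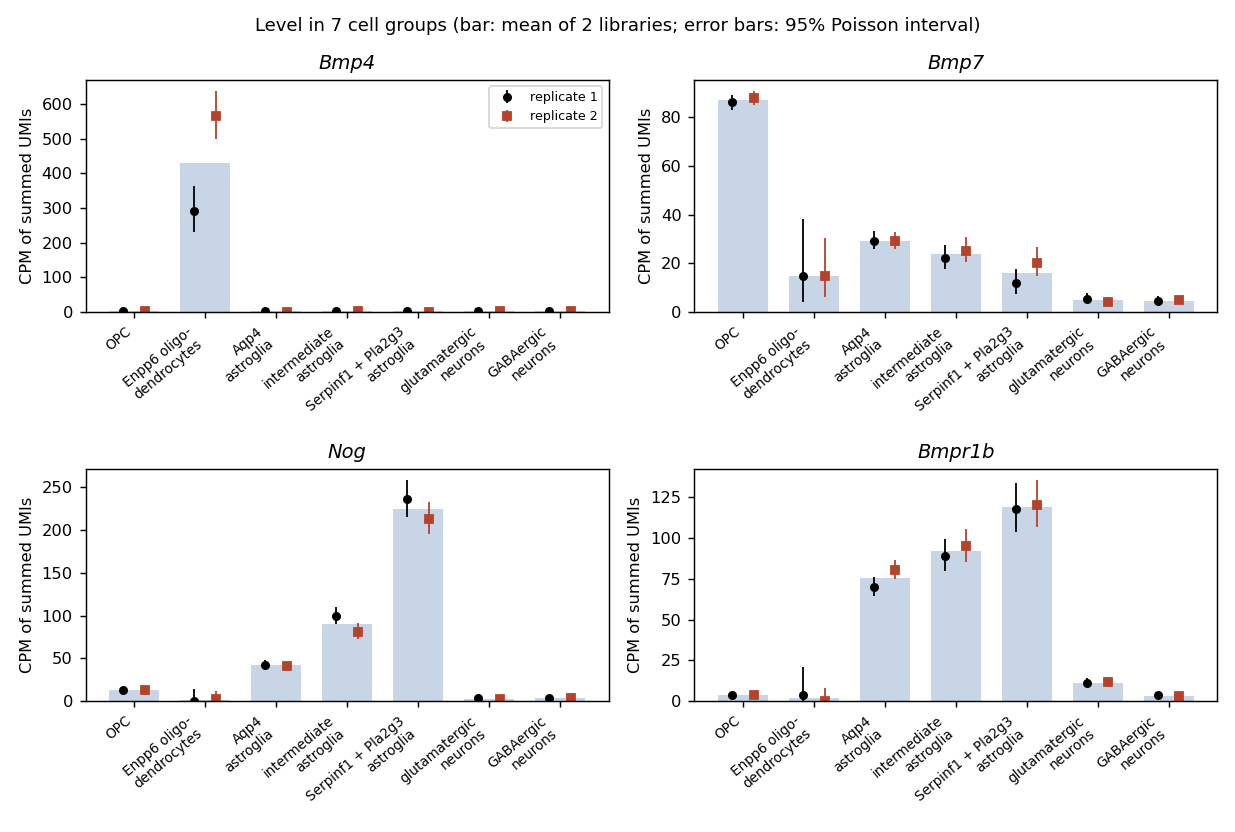
CPM of summed UMIs (y axis) of Bmp4, Bmp7, Nog and Bmpr1b in 7 cell groups (x axis), with points for each library, 95% Poisson intervals as error bars and bars at the mean of 2 libraries. Bmp4 stands at 292 and 567 CPM in Enpp6 oligodendrocytes and near 0 in the other 6 groups, Bmp7 is highest in OPCs, and Nog and Bmpr1b step up through the 3 astroglial groups.

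Bmp5 and Bmp6 were rare, with 86 and 137 UMIs over both libraries. Bmp5, on chromosome 9 (75775364 to 75900310), had its largest share of UMIs in Cajal-Retzius cells, the Reln-secreting neurons of the cortical surface. They had 19.5 and 11.0 CPM from 25 and 16 UMIs, which was 47.7% of the Bmp5 UMIs, and 21.4% and 12.2% of them had a UMI. Another 34.9% fell in cells that met more than 1 definition, and fibroblasts and mural cells had 31.3 and 14.3 CPM from 3 and 1 UMIs. Microglia had no Bmp5 UMI. Of 15 cells with 2 or more Bmp5 UMIs, 9 were Cajal-Retzius cells. Bmp6, on chromosome 13 (38345107 to 38500302), reached 7.01 and 11.7 CPM in Cajal-Retzius cells and 135.6 and 28.6 CPM in fibroblasts and mural cells, the latter from 13 and 2 UMIs. Of its UMIs, 46.7% fell in cells that met more than 1 definition. Of the 23 cells with 2 or more Bmp6 UMIs, 15 had the fibroblast collagen Col1a1 and 16 had Pdgfra, a gene that fibroblasts share with OPCs. The 4 and 12 cells that met the OPC and the fibroblast definitions had 71.1 and 142 CPM of Bmp5 (3 and 22 UMIs), 142 and 277 CPM of Bmp6 and 450.3 and 303 CPM of Bmp7, beside 1280 and 1142 CPM of Col1a1 and 94.8 and 19.3 CPM of Sox10, the transcription factor of the oligodendrocyte lineage. Whether they are fibroblasts was not tested.

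**Figure D3:**
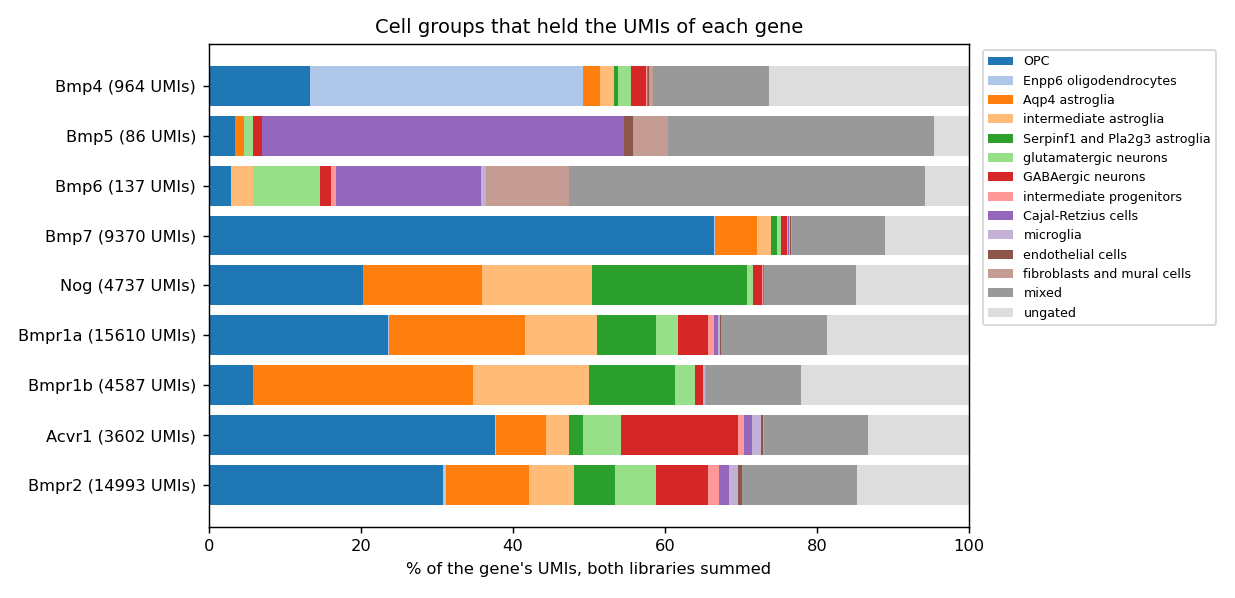
Share of each gene's UMIs (x axis, percent, both libraries summed) held by each cell group, 1 bar per gene with its total UMIs in brackets. OPCs hold 66.5% of the Bmp7 UMIs, Cajal-Retzius cells 47.7% of the Bmp5 UMIs, and mixed or ungated cells a share of every gene's UMIs.

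Noggin was highest in the astroglia marked by Serpinf1 and Pla2g3. Nog is a small gene on chromosome 11 (89300638 to 89302332, minus strand). These astroglia had 236 and 213 CPM (225 ± 16.2, SD, n = 2), and 71.5% and 69.8% of them had a UMI. Intermediate astroglia had 99.7 and 81.2 CPM, Aqp4 astroglia 42.9 and 41.0 CPM and OPCs 13.3 and 13.6 CPM. No neighbours in this order overlapped, and each library gave the same order. The level with both genes was 5.51-fold and 5.21-fold that of Aqp4 astroglia and 17.8-fold and 15.7-fold that of OPCs. Neurons had 2.63 to 4.32 CPM, with glutamatergic and GABAergic values overlapping. Enpp6 oligodendrocytes held a single Nog UMI, in replicate 2. Microglia had a Nog UMI in 0.775% and 1.34% of cells, under the 10.2% and 11.4% of OPCs. With cells thinned to 2000 UMIs, the shares were 37.1% and 33.6% with both genes, 17.7% and 16.5% in intermediate astroglia, 7.24% and 7.62% in Aqp4 astroglia and 2.84% and 2.89% in OPCs.

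Serpinf1 and Pla2g3 each marked a step in Nog. Aqp4 astroglia with Serpinf1 alone (144 and 106 cells) had 92.8 and 85.8 CPM of Nog, and those with Pla2g3 alone (272 and 268 cells) 103 and 79.8 CPM. The single-gene groups overlapped with each other and lay between the astroglia with neither gene and those with both. Median depth was 8990 and 9964.5 UMIs in Aqp4 astroglia, 9055.5 and 10076 in intermediate astroglia and 8292 and 8750 in astroglia with both genes. Summed ependymal markers stood at 12.2 and 13.6 CPM in astroglia with both genes and 25.7 and 15.2 CPM in Aqp4 astroglia, with the defining markers Tmem212 and Ccdc153 at 0 in the former. Summed fibroblast and mural markers stood at 18.6 and 18.4 CPM against 10.2 and 17.6 CPM, and summed endothelial markers at 7.34 and 4.37 CPM against 1.84 and 1.80 CPM. The part of these small differences in the Nog level was not tested.

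**Figure D4:**
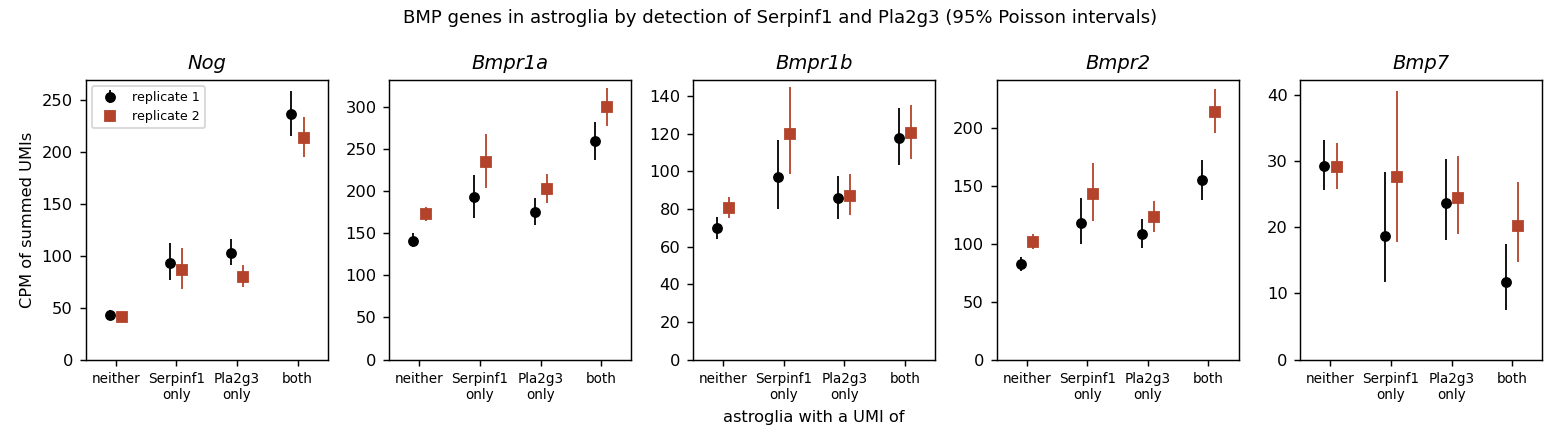
CPM of summed UMIs (y axis) of Nog, Bmpr1a, Bmpr1b, Bmpr2 and Bmp7 in astroglia with a UMI of neither Serpinf1 nor Pla2g3, of either alone, or of both (x axis), by library with 95% Poisson intervals. Nog goes from 42.9 and 41.0 to 236 and 213 CPM and the receptors span a smaller fold, while Bmp7 is lowest with both genes in each library. Its interval there overlaps that of Serpinf1 alone in each library, and in replicate 2 also those of Pla2g3 alone and of neither gene.

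Bmpr1a, Bmpr1b and Bmpr2 followed the astroglial order of Nog more shallowly, and Acvr1 was nearly level (12.7 and 13.9 CPM in Aqp4 astroglia, 14.0 and 15.6 in intermediate astroglia, 13.7 and 17.1 with both genes). Bmpr1a, a type I receptor gene on chromosome 14 (34410734 to 34503341), stood at 259 and 299 CPM in astroglia with both genes, 180.3 and 210.1 CPM in intermediate astroglia and 141 and 173 CPM in Aqp4 astroglia. OPCs had 46.6 and 55.8 CPM, glutamatergic neurons 37.6 and 44.9 CPM and GABAergic neurons 36.4 and 45.3 CPM. Replicate 2 was higher in most groups, but the 3 astroglial groups did not overlap, whereas the neuron groups did. The astroglia with both genes were 1.83-fold and 1.73-fold Aqp4 astroglia, which were 3.03-fold and 3.09-fold OPCs. A UMI was found in 81.3% and 80.4% of astroglia with both genes and 14.0% and 16.8% of microglia, and after thinning in 39.7% and 42.0% against 1.64% and 0.68%.

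Bmpr1b separated the glial branches further. This type I receptor gene, on chromosome 3 (141837136 to 142169425), had 118 and 120.3 CPM in astroglia with both genes, 89.2 and 94.99 CPM in intermediate and 69.8 and 80.6 CPM in Aqp4 astroglia. OPCs had 3.91 and 3.55 CPM, and Aqp4 astroglia lay 17.8-fold and 22.7-fold above that level. A UMI was present in 3.13% and 2.99% of OPCs and in 1.55% and 2.68% of microglia, shares that overlap within counting error, so expression in OPCs is not read from them and the folds over OPCs are folds over a level near background. Thinned shares were 22.0% and 21.8% in astroglia with both genes and 12.1% and 15.0% in Aqp4 astroglia.

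UMIs of Bmpr2 and Acvr1 were found across the groups. Bmpr2, the type II receptor gene on chromosome 1 (59763400 to 59879014), was found in every group, with 44.3 and 50.2 CPM in microglia, 41.7 and 114 CPM in fibroblasts and mural cells (4 and 8 UMIs), and up to 155 and 214 CPM in astroglia with both genes and 151 and 197 CPM in endothelial cells. OPCs with 57.2 and 71.2 CPM, glutamatergic neurons with 70.1 and 78.8 CPM and GABAergic neurons with 59.3 and 76.9 CPM overlapped. Acvr1, on chromosome 2 (58388644 to 58567157), was highest of all 12 groups in GABAergic neurons, with 35.3 and 38.6 CPM. Dividing cells made up 360 of 958 and 397 of 1012 cells of that group, and these levels include them. OPCs had 17.8 and 19.99 CPM. Thinned to 2000 UMIs, Acvr1 was detected in 6.29% and 7.91% of GABAergic neurons, 2.71% and 3.58% of glutamatergic neurons and 3.28% and 2.72% of microglia, so the glutamatergic share is close to that of microglia.

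Across the 24 sums of 12 groups in 2 libraries, the genes most like each member were found by Pearson's r of log2(CPM + 10) among 10893 genes, as a description. Bmp4 was most like 9630013A20Rik (r = 0.96), Strn (0.96) and the myelin gene Cldn11 (0.96). Nog was most like Rhcg (0.97), Mef2b (0.97) and the potassium channel gene Kcnj6 (0.97). Bmpr1b was most like Dio2 (0.97), the deiodinase of astrocytes, Klf15 (0.97) and Lrig1 (0.97), and Bmpr1a was most like Mmd2 (0.96). Bmp6 was most like Gxylt2 (0.99) and Bmp5 most like Col6a2 (0.96), values that rest on the 13 and 11 fibroblasts and mural cells. The genes named for Bmp4 were highest in Enpp6 oligodendrocytes, so those values rest on 15 and 31 cells. Bmp7 (Trim62, 0.89), Bmpr2 (Macf1, 0.85) and Acvr1 (Fam122a, 0.83) had no gene over 0.9. Trim62 was also highest in fibroblasts and mural cells (68.4 CPM). The sums share libraries, and each group's 2 sums are close to each other.

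The other BMP pathway genes, which did not choose the groups, were tested with edgeR's quasi-likelihood test and Benjamini-Hochberg adjustment over all genes. Their list was drawn up with earlier results of these data known. The share of the list that was called is therefore a description and no independent test of the pathway. Of 52 listed, 44 passed the filter on low counts. Between astroglia with Serpinf1 and Pla2g3 and Aqp4 astroglia, 21 of the 44 were called, 19 higher and 2 lower, against 12.6% of all 14199 genes tested, of which 6.86% were higher and 5.76% lower. The 44 genes had a median log2 fold change of 0.38, against -0.006 over all genes tested. All 8 listed target genes were higher. Id3 stood at 3222 and 3084 CPM against 1861 and 1712 (log2 fold change 0.82 ± 0.05 SE, adjusted p = 4.9e-21 by edgeR), and Id4 at 312 and 339.9 against 181 and 197 (0.79 ± 0.07). Id1 rose by 0.48 ± 0.06 and Id2 by 0.33 ± 0.05 on the log2 scale. Hey1, a Notch and BMP target, rose by 1.18 ± 0.09. The homeobox genes Msx1 (15.7 and 16.6 CPM against 2.21 and 2.65) and Msx2 (9.30 and 12.2 against 1.23 and 0.42) rose by 2.72 ± 0.33 and 3.74 ± 0.49, and Atoh8 by 1.84 ± 0.27. In each of these genes both libraries of one group lay above both of the other.

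Of 11 Smads and regulators tested, 6 were higher, 1 was lower and 4 were not called. Smad6, an inhibitory Smad that BMP signalling induces, stood at 24.5 and 28.0 CPM against 2.71 and 4.02 (2.95 ± 0.27, adjusted p = 4.1e-13 by edgeR). Smad7 stood at 67.0 and 59.9 CPM against 26.6 and 23.1 (1.36 ± 0.13), and the repressor gene Ski rose by 0.96 ± 0.08 and Skil by 0.56 ± 0.10. Among the Smads that carry the signal, Smad9 rose by 1.41 ± 0.32 from 4.06 and 4.76 CPM, Smad5 fell by 0.52 ± 0.10, and Smad1 (-0.09 ± 0.12, adjusted p = 0.77 by edgeR) and Smad4 (-0.03 ± 0.09, adjusted p = 0.89 by edgeR) were not called. Of 8 other receptors and co-receptors, Rgma and the decoy receptor gene Bambi (17.6 and 18.8 against 10.5 and 9.10 CPM; 0.91 ± 0.21) were higher and 6 were not called. Of 11 secreted antagonists and modulators tested beside Nog, Bmper, Chrdl1 and Grem1 were higher and none was lower. Of 6 ligands, Inhbb, which encodes an inhibin and activin subunit, was lower (-0.70 ± 0.19) and 5 were not called. Dividing cells were 17 of 246 and 27 of 255 of the astroglia with both genes, and 122 of 909 and 112 of 932 of Aqp4 astroglia. Without dividing cells 21 of the 44 genes were again called, 18 higher and 3 lower.

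**Figure D5:**
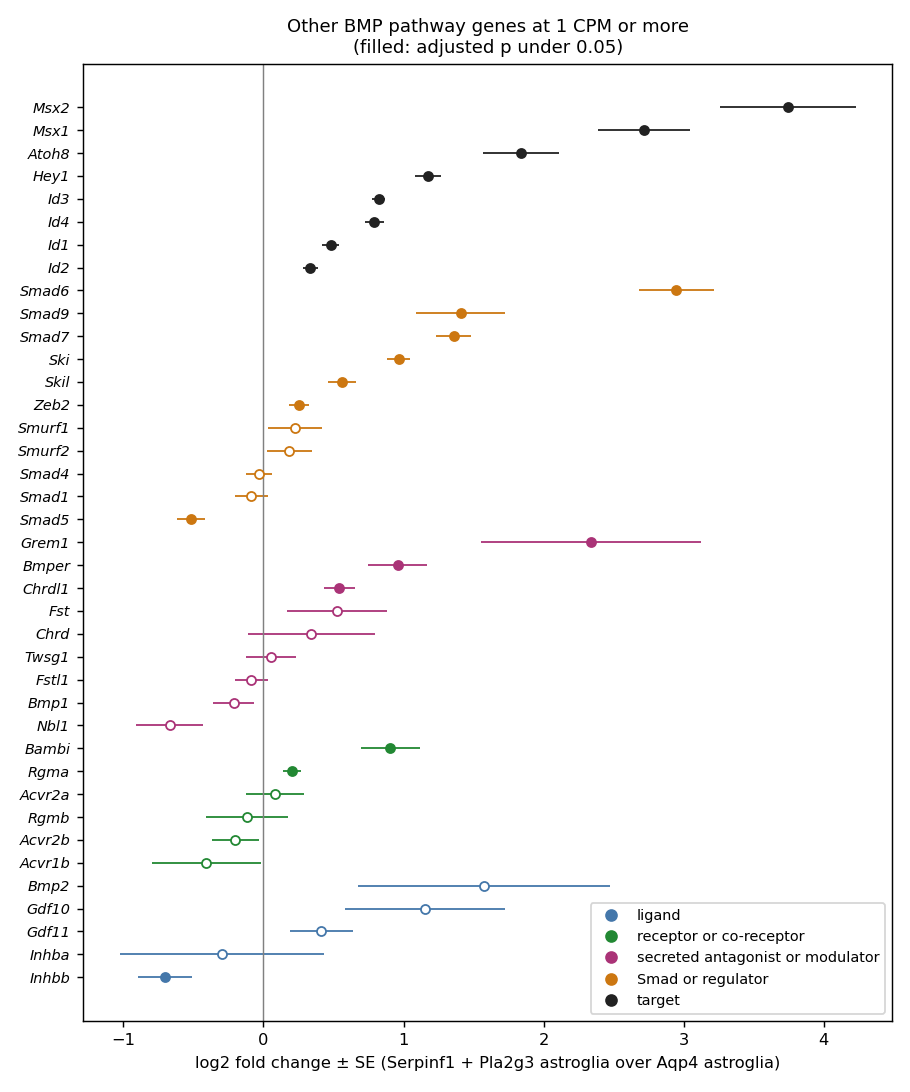
Log2 fold change ± SE (x axis) of astroglia with Serpinf1 and Pla2g3 over Aqp4 astroglia, for the listed BMP pathway genes with at least 1 CPM in a group, coloured by role and filled where the adjusted p is under 0.05. All 8 targets lie to the right of 0, and Smad5 and Inhbb are the only filled points to the left.

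Promoters of a target gene and an inhibitory Smad from this comparison are shown because the genes moved together. The 250 bases before the RefSeq starts of Id4 (chr13:48260866-48261115, plus strand) and Smad6 (chr9:64022060-64022309, minus strand), GRCm38.p6, read 5′ to 3′ with GGCGCC in capitals:

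Id4: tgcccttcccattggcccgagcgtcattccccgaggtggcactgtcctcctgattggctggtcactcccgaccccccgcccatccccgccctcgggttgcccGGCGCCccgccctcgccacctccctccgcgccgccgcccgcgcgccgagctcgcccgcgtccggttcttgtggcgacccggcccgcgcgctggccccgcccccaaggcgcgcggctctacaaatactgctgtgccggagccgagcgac

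Smad6: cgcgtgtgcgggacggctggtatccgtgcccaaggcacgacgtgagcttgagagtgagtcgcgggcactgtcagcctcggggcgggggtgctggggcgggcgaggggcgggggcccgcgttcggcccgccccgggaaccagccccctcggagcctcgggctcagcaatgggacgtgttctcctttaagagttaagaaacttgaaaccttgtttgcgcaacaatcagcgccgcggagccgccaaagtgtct

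GGCGCC, which reads the same on both strands, occurs once in the Id4 window and not in that of Smad6. It was found in 2577 of 27025 such promoters (9.54%), in 2 of the 7 BMP members matched in the table (Bmpr1a and Bmpr2) and in 2 of the 6 targets matched (Id2 and Id4). A match is a description of letters and no site was tested. Id4 overlaps annotated genes on the other strand of its locus, A330033J07Rik and Gm49291. Bmp5 (Gm26903), Bmp6 (Txndc5) and Bmpr1a (Gm17110) also overlap a gene on the other strand. The strand setting of the counting is not stated, so whether their UMIs include those of the overlapping genes is not known.

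Aqp4 astroglia and OPCs differed in most of the pathway, as in most of the transcriptome. Of the 44 genes 30 were called, 24 higher and 6 lower in astroglia, against 64.7% of all genes tested (31.3% higher, 33.4% lower). All 8 targets were higher in astroglia. Id1 stood at 509 and 511 CPM against 46.4 and 43.2 (3.66 ± 0.06, adjusted p = 3.2e-47 by edgeR), Id3 at 1861 and 1712 against 182 and 152 (3.58 ± 0.05), and Id4 at 181 and 197 against 28.1 and 26.5 (2.94 ± 0.06). Id2 rose by 1.49 ± 0.05. Smad9 rose by 1.66 ± 0.27 and Smad5 by 0.84 ± 0.05, while Smad1 (-0.01) and Smad4 (-0.07) were not called. Of the antagonists, follistatin (Fst, 3.05 ± 0.30) and Fstl1 (2.71 ± 0.09) rose and chordin (Chrd) fell by 1.51 ± 0.20, from 8.55 and 8.82 to 3.07 and 2.43 CPM. The ligand gene Bmp2 was lower in astroglia, with 0.74 and 0.21 CPM against 4.94 and 5.48 (-3.32 ± 0.40). The co-receptor gene Rgma rose by 2.82 ± 0.05.

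Enpp6 oligodendrocytes were too few for this test, with 15 cells in replicate 1 where 20 were required. With a threshold of 1 UMI (37 and 53 cells), 13.9% of 13850 genes were called against OPCs (6.67% higher, 7.28% lower) and 5 pathway genes passed. Smad7 (115 and 60.2 CPM against 21.7 and 20.7; 1.95 ± 0.20, adjusted p = 1.4e-12 by edgeR), Zeb2 (1.40 ± 0.09), a repressor that binds Smads, and Smurf1 (0.84 ± 0.28) were higher. Bambi (4.50 and 0 against 12.9 and 11.5 CPM; -2.77 ± 0.75) and Id2 (-0.72 ± 0.11) were lower. As Bambi had no UMI in the Enpp6 cells of replicate 2, its fold rests on a low count.

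Neurons and OPCs differed in 27 of the 44 genes, 15 higher and 12 lower in neurons, against 70.5% of all genes (34.9% higher, 35.6% lower). The neuron side is the average of glutamatergic and GABAergic neurons. Of the targets, Id4 (94.9 and 101 against 28.1 and 26.5 CPM; 1.66 ± 0.07) and Id2 (0.44 ± 0.05) were higher, Hey1 (-2.14 ± 0.11) and Id3 (-0.67 ± 0.05) were lower, and 4 were not called. For Id2 the neuron types lay on opposite sides of OPCs (270 and 316 CPM). Glutamatergic neurons had 790 and 952 CPM and GABAergic neurons 140 and 153 CPM. Zeb2 rose by 1.79 ± 0.04 and the co-receptor gene Rgmb by 2.46 ± 0.09, from 6.77 and 7.73 to 36.3 and 36.3 CPM. Bmp2 (-3.63 ± 0.36), Chrdl1 (-2.41 ± 0.14) and Bmper (-1.82 ± 0.22) were lower in neurons, and the antagonist gene Grem1 (2.28 ± 0.36) was higher. Grem1 had 14.7 and 12.6 CPM in glutamatergic neurons. In GABAergic neurons it had 0.86 and 0.88 CPM, close to the 0.99 and 0.60 CPM of OPCs.

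GABAergic and glutamatergic neurons were compared also for the members, which had not been chosen on this contrast. Of the 8 members that passed the filter (Bmp4 did not, and Bmp5 and Bmp6 passed through Cajal-Retzius cells), 3 were called, against 49.3% of 14199 genes (22.9% higher, 26.4% lower), so the count is not above the background and, with Bmp5 at 1 UMI on each side, is no measure of the members as a set. Acvr1 was higher in GABAergic neurons, 35.3 and 38.6 against 16.1 and 17.2 CPM (1.24 ± 0.12, adjusted p = 4.1e-13 by edgeR). Bmpr1b was lower, 3.74 and 3.00 against 11.0 and 11.6 CPM (-1.66 ± 0.24, adjusted p = 3.1e-08 by edgeR). For both genes the groups did not overlap. Bmp6 was lower from 2 UMIs against 12 (-2.83 ± 1.09, adjusted p = 0.027 by edgeR), which is 8.30-fold higher in glutamatergic neurons with a counting interval of 1.85 to 76.3. The shares of glutamatergic neurons with a Bmp6 UMI, 0.753% and 0.368%, overlap within counting error with the 0 and 0.671% of microglia, so this call is not read as a difference in expression. Bmp6 lost this call with edgeR and no filter (adjusted p = 0.052), with DESeq2 (adjusted p = 0.062) and at no more than 5% mitochondrial UMIs (adjusted p = 0.075). Bmpr1a (0.08 ± 0.09), Bmpr2 (-0.03), Bmp7 (0.08) and Nog (0.34 ± 0.32) were not called.

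Dividing cells made up 360 of 958 and 397 of 1012 GABAergic cells but 19 of 797 and 9 of 816 glutamatergic cells. Without them Acvr1 (1.11) and Bmpr1b (-1.53) kept their calls. In the pathway 22 of 44 genes were called, 8 higher and 14 lower in GABAergic neurons. Of all genes 49.3% were called (22.9% higher, 26.4% lower), so the pathway count is near that share and the genes below are named singly. The activin subunit gene Inhba (0.58 and 0.63 against 24.5 and 16.8 CPM; -4.95 ± 0.33), the antagonist genes Grem1 (-3.85 ± 0.34) and Fst (-3.26 ± 0.69), and Id2 (140.2 and 153 against 790.2 and 952 CPM; -2.48 ± 0.06) were lower. Id4 (151 and 166 against 38.8 and 36.1 CPM; 2.18 ± 0.09) and Bambi (1.66 ± 0.19) were higher. Chrd was lower (-1.29 ± 0.34), but not without dividing cells (-0.53, adjusted p = 0.27 by edgeR).

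Within OPCs no member was called between the 622 and 673 dividing cells (3 or more of 7 mitotic genes detected) and the others, by edgeR, against 41.7% of 14297 genes (14.7% higher, 27.0% lower) and at medians of 12994.5 and 13655 UMIs against 7971 and 8790.5. Acvr1 was nearest the threshold, with 15.9 and 18.4 against 18.5 and 20.6 CPM (-0.22 ± 0.09, adjusted p = 0.052 by edgeR). It was the only member with an unadjusted p under 0.05, and DESeq2 called none. Bmp7 (-0.07 ± 0.07), Bmpr1a (0.06 ± 0.07), Bmpr2 (-0.02 ± 0.06) and Nog (-0.005 ± 0.11) had small values. Bmp5 and Bmp6 had at most 3 UMIs on either side. With groups set at 1 UMI, where Bmp4 passed the filter on low counts, Bmp4 was called lower in dividing OPCs and was the only member called. At 2 UMIs, 1.61% and 1.04% of dividing OPCs had a Bmp4 UMI against 1.21% and 1.22% of the others. OPC shares as a whole cannot be told from the microglial background, so this call is not read as a difference in expression. Of the pathway genes 11 were called, 4 higher and 7 lower, among them Id1 (0.43 ± 0.08) and Chrdl1 (0.51 ± 0.09) higher and Id2 (-0.37 ± 0.05), Gdf11 (-0.54 ± 0.12) and Chrd (-0.56 ± 0.15) lower. Chrd lost its call with DESeq2 (-0.51, adjusted p = 0.17). The median of all genes was -0.113 in this contrast. DESeq2 called 6 pathway genes.

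Within Aqp4 astroglia Bmpr1b was lower in dividing cells (122 and 112 cells). It stood at 46.0 and 58.1 CPM in dividing against 76.5 and 86.1 CPM in other cells (-0.74 ± 0.12, adjusted p = 5.2e-07 by edgeR), without overlap, and kept this call in all 9 alternatives. Bmpr1a stood at 131 and 161 against 144 and 175 CPM, with overlapping values (-0.23 ± 0.08, adjusted p = 0.017 by edgeR). It was near the median of all genes (-0.196) and lost its call in 7 of 9 alternatives, with adjusted p = 0.69 at the threshold of 3 UMIs. These were 2 of 8 members tested, against 34.1% of all genes (11.8% higher, 22.3% lower). The 8 include Bmp5, with 1 UMI over both groups, and Bmp6, with none, which passed the filter through Cajal-Retzius cells and could not be called. More genes were higher than lower among all calls at 3 UMIs (57.2%), at 1 UMI (53.3%), without doublets (52.3%) and at no more than 5% mitochondrial UMIs (52.1%), against 34.6% in the test given. Nog did not pass (45.4 and 44.0 against 42.2 and 40.2 CPM; 0.02 ± 0.13), nor did Acvr1 (-0.29 ± 0.23, adjusted p = 0.37 by edgeR), Bmp7 (-0.30 ± 0.18, adjusted p = 0.20 by edgeR) or Bmpr2 (-0.23 ± 0.10, adjusted p = 0.059 by edgeR). With edgeR and no filter on low counts Bmpr2 was called (-0.29, adjusted p = 0.023). Bmp4, with 0 UMIs in dividing and 21 in other cells, was called lower with no filter, with DESeq2 and at 1 UMI, where it was tested. The 21 UMIs lay in 3 of 787 and 5 of 820 other cells. These calls rest on few cells and are not read as a difference in expression.

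In this contrast 12 of the 44 pathway genes were called, a smaller share than the 34.1% of all genes, and the 12 were lower in dividing astroglia. The median log2 fold change of the 44 genes was -0.199, near the -0.196 of all genes tested. At 1 UMI 2 of 11 pathway calls were higher, and without doublets 1 of 10. Id4 stood at 119 and 109 against 198 and 218 CPM (-0.97 ± 0.09), and Id2 (-0.58 ± 0.06), Hey1 (-0.54 ± 0.13), Id3 (-0.49 ± 0.06) and Id1 (-0.41 ± 0.07) were lower as well. Hey1 lost its call at 3 UMIs (-0.24, adjusted p = 0.24 by edgeR). The secreted modulator gene Bmper had 3.93 and 2.71 against 9.76 and 13.4 CPM (-1.90 ± 0.36). Gdf10, a BMP-like ligand gene, had 0 UMIs in dividing cells and 29 in the others, at least 2.51-fold lower against a floor of 3 counts over the group. Median depth was 14431.5 and 15298.5 UMIs in dividing cells against 8274 and 9558.5 in the others, and astrocyte markers were also lower in dividing cells: mean levels were 468 against 1465 CPM for Aldoc, 622 against 1246 for Slc1a2, 29.4 against 218 for Gfap, 123 against 212 for Gja1 and 109 against 139.9 for Fgfr3. The part of either in these differences was not tested. In a test of the difference between the effects of division in astroglia and in OPCs, chosen after seeing the data, 7 pathway genes and Bmpr1b were lower in astroglia, against 11.9% of all genes (3.61% higher, 8.31% lower). The higher calls were 30.3% of all calls there, but 53.3% at 3 UMIs and 58.3% at 1 UMI.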

How the data were processed

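The members and gene lists were chosen with earlier results of these data known. The authors deposited filtered matrices of whole UMI counts, written by Cell Ranger 6.0.2 per the file headers; mm10, R 4.1.0 and Seurat 4.1.0 are named in the submitters' processing notes. The sources used here do not state the strand setting of the counting. Barcodes with under 500 genes (441 and 657) or over 10% mitochondrial UMIs (2189 and 2891) were left out. Scrublet marked 829 and 808 cells (7.38% and 7.37%) as doublets, which were kept except in an alternative. The libraries shared 40 barcodes. UMIs were summed per library and group (20 cells or more) and tested with edgeR 4.0.16 in R 4.3.3 (TMM scaling, quasi-likelihood, library as a block), over 9 groups in 18 sums, or 11 groups in 22 sums where dividing cells were split off. Genes used to define groups were left out of the tests. The block pairs sums that come from the same sorted cells, and their deviations from the group means correlated at 0.0115 to a median of 0.0632 over 72 pairs. Named pathway genes were up to 8 called genes of largest fold change at 5 CPM or more and of 1 direction in both libraries, plus Smad1, Smad4, Smad5, Smad9 and Id1 to Id4. Other called genes named by role were chosen after their values were seen. Sequences and promoter windows are from RefSeq (GRCm38.p6). The tests were tested on simulated data. Alternatives were DESeq2 1.42.0 and its size factors, no block, no count filter, thresholds of 1 and 3 UMIs, no doublets, at most 5% mitochondrial UMIs and, chosen after seeing the data, no shared barcodes and no dividing cells.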

Additional observations from a re-analysis of the deposited data

Results flagged for a closer look

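The effect of division differed between Aqp4 astroglia and OPCs for 8 genes of the list, by an edgeR test of the difference itself that was chosen after seeing the data and calls 11.9% of 14297 genes, 8.31% as lower in astroglia. Among all genes the balance turned with the setting: 516 were higher and 1188 lower, against 714 and 626 at 3 UMIs, 1405 and 1006 at 1 UMI, 1055 and 790 without doublets, and 996 and 768 at no more than 5% mitochondrial UMIs. On the log2 scale (astroglial effect less OPC effect), Id1 differed by -0.84, Id4 by -0.72, Id3 by -0.47, Rgma by -0.71, Chrdl1 by -0.60 and Bmper by -1.90. Id1 was higher in dividing than in other OPCs (0.43) and lower in dividing than in other astroglia (-0.41). Bmpr1b, the only member among them, differed by -0.76 ± 0.24 (adjusted p = 0.026 by edgeR), from 0.02 in OPCs, where it is near background, and -0.74 in astroglia. Gdf10 differed by -7.37, a fitted value that depends on the prior count since dividing astroglia had 0 UMIs. Over 9 alternatives Id1, Id4, Rgma and Bmper passed in all 9, Id3 and Chrdl1 in 7, Bmpr1b in 6 and Gdf10 in 5. Bmpr1b did not pass without the library block (adjusted p = 0.065 by edgeR), with DESeq2 (adjusted p = 0.17) or without doublets (adjusted p = 0.20 by edgeR), over a range of -0.82 to -0.56.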

How the results depend on the processing

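With 2 libraries and 1 sum per group in each, leaving out a replicate leaves no residual degrees of freedom, so no test was run; the levels then ranged from 292 to 567 CPM for Bmp4 in Enpp6 oligodendrocytes, 86.2 to 87.9 for Bmp7 in OPCs, 213 to 236 for Nog and 118 to 120.3 for Bmpr1b in astroglia with Serpinf1 and Pla2g3. Enpp6 oligodendrocytes were tested at the threshold of 1 UMI only. Without the library block (no pairing of sums) the count of all genes called fell from 1792 to 1071 for the astroglial contrast and from 5962 to 3543 for dividing OPCs (3525 with DESeq2), and pathway genes called in dividing OPCs from 11 to 6 (7 with DESeq2 size factors, 6 with DESeq2). Of the calls in dividing OPCs 35.3% were higher, 43.6% with DESeq2 size factors and 52.2% with DESeq2. A threshold of 3 UMIs left 5 pathway calls of 12 in dividing astroglia. Bmp7 in OPCs was 88.7 CPM at 3 UMIs, 83.3 at 1 UMI and 92.9 as a mean of single cells. That mean was 243 CPM for Nog and 129.9 for Bmpr1b in astroglia with Serpinf1 and Pla2g3, and Bmpr1b was 115 CPM there at 1 UMI. Of 762 values over 79 tested genes, 716 kept direction and call, 26 lost the call, 1 gained it and 19 changed sign, all of them for genes not called in the first place. These were, in the astroglial contrast, Smad1 at 1 UMI (0.026) and Smad4 without dividing cells (0.0054); in astroglia against OPCs, Smad1 with DESeq2 size factors (0.00043) and at most 5% mitochondrial UMIs (0.010); in neurons, Bmpr2 without doublets (0.00037) and at most 5% mitochondrial UMIs (0.0067) and Bmpr1a without dividing cells (-0.089); in dividing OPCs, Bmpr2 with DESeq2 size factors (0.023), DESeq2 (0.021), at 3 UMIs (0.021) and without doublets (0.0037), Nog with DESeq2 size factors (0.037), DESeq2 (0.038), at 3 UMIs (0.105), at 1 UMI (0.0036) and at most 5% mitochondrial UMIs (0.0092), and Bmpr1b without doublets (-0.033); in dividing astroglia, Nog with no filter (-0.039) and at 1 UMI (-0.080). Depth limits Bmp5 and Bmp6, with 86 and 137 UMIs in all, and Bmp4 outside Enpp6 oligodendrocytes.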
